A study of Mus musculus with 288 samples.

Results

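The Nodal, Lefty and Cripto genes are 8 genes chosen by name from the 54232 rows of a table of reads per gene in single mouse embryonic stem cells. They comprise the ligand Nodal, its inhibitors Lefty1 and Lefty2, the co-receptor gene Tdgf1 (Cripto), the receptor gene Acvr2b, the signal transducers Smad2 and Smad3, and their DNA-binding partner Foxh1. All 8 were found in the table.

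The cells were labelled as the line E14, strain 129/Ola, throughout. Cells labelled D0 (0 h) had been grown on gelatine in serum-free N2B27 medium with 2i and LIF, where 2i is the pair of the GSK3 inhibitor CHIR99021 and the MEK inhibitor PD0325901 that holds these cells in a naive pluripotent state. Cells labelled D1 (24 h) and D2 (48 h) had been moved to medium with serum and LIF, so that LIF was present under all 3 labels. Single cells were sorted into plates and their RNA and DNA were separated and sequenced (scNMT-seq), of which the RNA is described here. Each label was 1 culture as far as the labels show, so cells are not replicates, plate and time point cannot be told apart, and no test between labels was run.

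Nodal is a secreted ligand of the TGF-beta family that binds type I and type II activin receptors, with Cripto, a membrane-anchored protein, as co-receptor. The receptors phosphorylate SMAD2 and SMAD3, which enter the nucleus with SMAD4 and act on DNA with partners such as FOXH1. Nodal, Lefty1 and Lefty2 are themselves targets of this pathway, and the Lefty proteins are secreted inhibitors that bind Nodal or its co-receptor, so the pathway holds both a positive and a negative loop. In embryonic stem cells it is active without added ligand and is known from the epiblast for its part in mesoderm and endoderm formation and in left-right patterning.

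Of 288 wells, 233 cells passed the filter of the study (more than 200000 reads, more than 2000 genes with a read, and less than 0.15 of reads on mitochondrial genes), 90 labelled D0, 50 D1 and 93 D2. Passing cells had 255040 to 10073010 reads on genes in D0, 202157 to 43336922 in D1 and 491549 to 9812323 in D2. With every cell thinned at random to 200000 reads, the median number of genes with a read was 7795.5 for D0, 8047.5 for D1 and 3959 for D2, so that at the same number of reads D2 cells showed fewer genes. D1 stood apart from both other labels in genes outside the pathway. The X-linked gene Hprt had a mean of 207 CPM (the reads of a gene per 1000000 reads of the cell) in D1, 3.08 in D0 and 2.68 in D2, and the summed level of 4 Y-linked genes was 269, 22.9 and 5.21 CPM. Whether D1 comes from the same stock of cells was not tested, and each comparison is therefore also given as D2 over D0, which does not use D1. All 6 pluripotency markers checked (Pou5f1, Sox2, Nanog, Zfp42, Dppa5a and Utf1) were read under every label, and every passing cell had a read of at least 1 of them at equal depth. Summed markers of primitive endoderm had a median of 0 CPM in each label and no passing cell had a read of the 4 markers of the 2-cell-like state. The list of trophectoderm markers, which includes genes that embryonic stem cells also express, was read at equal depth in 94.4% of D0, 52% of D1 and 29% of D2 cells, with medians of 59.4, 6.42 and 0 CPM.

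In the GRCm38 build (GENCODE vM21) Nodal lies at chr10:61417972-61425338 on the plus strand, Tdgf1 at chr9:110939603-110946158 and Smad3 at chr9:63646767-63757994, both on the minus strand, and Acvr2b at chr9:119402118-119434995 on the plus strand. Foxh1 lies at chr15:76668225-76669948 on the minus strand. The inhibitors are neighbours on the plus strand of chromosome 1, with Lefty2 at chr1:180893108-180899103 and Lefty1 at chr1:180935022-180938400. They are 35918 bases apart. Acvr2b is the only member whose coordinates overlap another annotated gene, Gm47320 on the opposite strand, and its reads are uncertain to that extent because it is not stated whether counting used the strand. Principal transcripts are 2095 bases long for Nodal, 1620 for Lefty1, 2473 for Lefty2, 1932 for Tdgf1, 3175 for Acvr2b, 8089 for Smad2, 5090 for Smad3 and 1365 for Foxh1.

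Reads of 3 members, Lefty1, Lefty2 and Tdgf1, can be drawn to a near-identical copy, and the copies were compared in the GENCODE transcripts. Over 1087 aligned coding bases Lefty1 and Lefty2 were 92.6% identical, and 173 of the 1030 windows of 75 bases in the Lefty1 coding sequence (16.8%) occurred unchanged in Lefty2, 75 bases being the length of each of the paired reads. A read from the remaining windows can tell the inhibitors apart.

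The coding sequence of Tdgf1 is nearly repeated in Tdgf1-ps1, a processed pseudogene of 513 bases at chr16:3730510-3731022 on the plus strand, which differs from it at 6 of 512 aligned bases. The closest 240 bases, coding bases 151 to 390, are shown for the uncertainty they bring to the reads of Tdgf1. They differ at the 1 base in capitals, and over the whole coding sequence 161 of 439 windows of 75 bases (36.7%) are the same in both. The stretch lies between chr9:110942339-110943176 on the minus strand for Tdgf1 and at chr16:3730660-3730899 for the pseudogene.
Tdgf1: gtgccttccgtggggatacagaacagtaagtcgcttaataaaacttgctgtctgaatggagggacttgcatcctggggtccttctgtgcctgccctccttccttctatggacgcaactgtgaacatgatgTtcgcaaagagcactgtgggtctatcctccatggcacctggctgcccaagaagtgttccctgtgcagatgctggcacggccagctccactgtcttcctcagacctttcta
Tdgf1-ps1: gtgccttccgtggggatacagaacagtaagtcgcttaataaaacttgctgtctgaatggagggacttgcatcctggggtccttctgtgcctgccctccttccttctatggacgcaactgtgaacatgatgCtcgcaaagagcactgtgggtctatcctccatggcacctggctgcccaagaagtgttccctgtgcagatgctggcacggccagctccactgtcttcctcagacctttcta
The pseudogene took 5.22% of the reads of the pair in the median D0 cell, 2.46% in the median D1 cell and 6.58% in the median D2 cell, over cells with at least 20 reads of the pair. In D1, 48 of 50 cells had an Hprt read, and those with at least 20 reads of the pair (45 cells) had a median of 2.36%. The other 2 D1 cells had 6.17% and 9.18%. In D0 the 9 cells with an Hprt read had a median of 4.36% and the cells without 5.30%. In D2 the 7 cells with an Hprt read had 6.45% and the cells without 6.60%. No cell had a pseudogene read without a Tdgf1 read. How reads that match both copies were counted is not given in the sources used here, so the level of Tdgf1 is uncertain to an extent that was not measured.

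Nodal, the ligand, had mean levels under 2-fold apart under all 3 labels while the share of cells with a read was lowest in D2. In the 90 D0 cells it ranged from 0 to 249 CPM with a median of 33.8 and a mean of 50.6 ± 54.2 CPM (SD between cells, as in all values below). In the 50 D1 cells it ranged from 0 to 217 CPM with a median of 34.5 and a mean of 48.7 ± 49.4. In the 93 D2 cells it ranged from 0 to 601 CPM with a median of 0 and a mean of 61.8 ± 133. The ranges overlapped throughout, and D2 combined more cells at 0 with a higher maximum. The ratio of the mean levels, with 1 CPM added to each, was -0.05 on the log2 scale for D1 over D0, 0.28 for D2 over D0 and 0.34 for D2 over D1. Over 11 other settings of the ratio the first ran from -0.53 to 0.43, and the second from 0.19 to 0.85, highest with TMM factors, without reaching 2-fold. The third ran from -0.05 to 0.71. With mean log-normalized values the difference was -0.06 both for D2 over D0 and for D2 over D1, so the sign turned. At 200000 reads per cell, 67 of 90 D0 cells had a Nodal read (74.4%, exact 95% interval 64.2% to 83.1%), 41 of 50 D1 cells (82%, 68.6% to 91.4%) and 34 of 93 D2 cells (36.6%, 26.8% to 47.2%). The reads became concentrated accordingly, as the highest 10% of cells held 32.9% of the summed CPM in D0, 32.3% in D1 and 70.6% in D2.

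Lefty1 went from a rarely read gene in D0 to one of the more abundant members in D2. In D0 it ranged from 0 to 213 CPM with a median of 0 and a mean of 7.20 ± 27.4, and 2 of 90 cells reached 100 CPM. In D1 it ranged from 0 to 423 CPM, again with a median of 0, and had a mean of 18 ± 69.3. In D2 it ranged from 0 to 3377 CPM with a median of 0 and a mean of 184 ± 498, and 23 of 93 cells reached 100 CPM, of which 4 reached 1000 CPM. A majority of cells were at 0 under every label, so the labels overlapped, and it was the cells with reads that stood higher in D2. Among cells with a read the median was 26.2 CPM in D0, 13.8 in D1 and 237 in D2. Such medians were also higher in D2 than in D0 for the other members except Smad2 (72.3 CPM in D0, 34.9 in D2). Lefty2 had 71.7 CPM in D0 and 194 in D2, and Smad3 44.6 and 154. The log2 ratio was 4.49 for D2 over D0 (22.5-fold) and 3.28 for D2 over D1 (9.72-fold). Over 11 other settings these ran from 3.49 to 5.62 and from 2.79 to 4.36. For D1 over D0 the ratio was 1.21, but this difference rested on few D1 cells. This last ratio was 0.87 when the highest cell of each label was left out and -0.75 in plate columns 1 to 6. At equal depth 13.3% of D0 cells had a read (7.08% to 22.1%), 14% of D1 cells (5.82% to 26.7%) and 32.3% of D2 cells (22.9% to 42.7%).

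Lefty2 was the prevalent inhibitor in D0, had a lower mean in D1 and its highest mean in D2, there in fewer cells than in D0. In D0 it ranged from 0 to 1231 CPM with a median of 0.318 and a mean of 88.1 ± 191, and 19 of 90 cells reached 100 CPM. In D1 it ranged from 0 to 268 CPM with a median of 0 and a mean of 22.4 ± 59. In D2 it ranged from 0 to 6069 CPM with a median of 0 and a mean of 181 ± 671. A single D2 cell lay far above the rest, since the next highest had 1535 CPM. The log2 ratio was -1.93 for D1 over D0 and 2.95 for D2 over D1. The first was short of 2-fold with TMM (-0.87) and median-of-ratios factors (-0.98). For D2 over D0 it was 1.03, just past 2-fold, and it was 0.62 without the highest cell of each label and -0.14 in plate columns 1 to 6. Reads at equal depth were present in 46.7% of D0 cells (36.1% to 57.5%), 22% of D1 cells (11.5% to 36%) and 31.2% of D2 cells (22% to 41.6%).

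The balance between the inhibitors differed between the labels. Of all reads on the pair, Lefty1 took 6.82% in D0, 38.6% in D1 and 57.5% in D2. Counted by cell, Lefty1 exceeded Lefty2 in 3 D0 cells and was below it in 45. In D1 it was above in 7 cells and below in 11, and in D2 above in 26 and below in 23. D0 thus had Lefty2 as its main inhibitor in nearly every cell with a read, whereas neither predominated in D2. Per kilobase of transcript, the scale on which genes can be compared, the mean level of Lefty1 was 4.44 CPM and that of Lefty2 35.6 CPM in D0, against 113 and 73 CPM in D2.

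**Figure D1:**
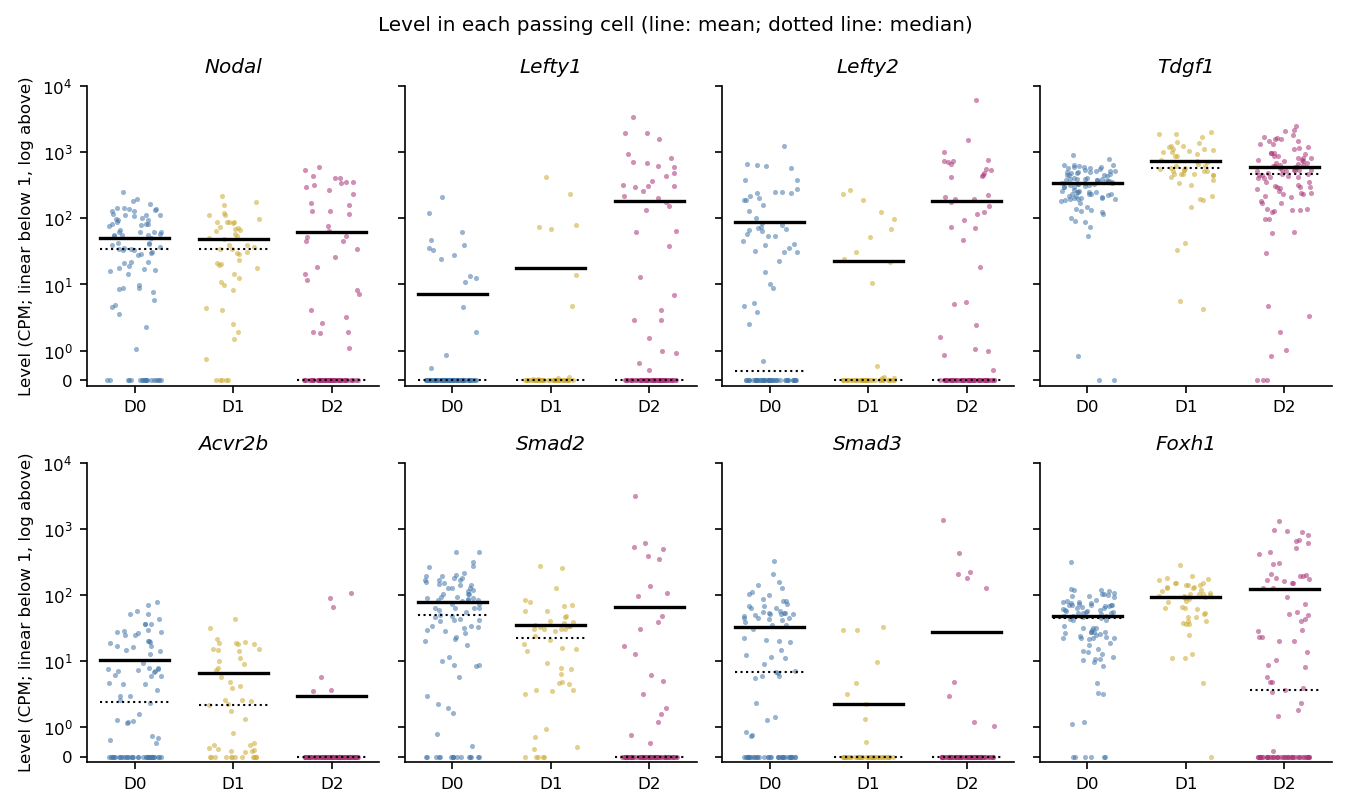
Level of each of the 8 genes in every passing cell (CPM on a vertical axis that is linear below 1 and logarithmic above), with 90 cells labelled D0, 50 D1 and 93 D2. Solid lines mark the mean and dotted lines the median; Lefty1 reaches 3377 CPM in D2 against 213 CPM in D0, while Tdgf1 is read in nearly all cells.

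Tdgf1, which encodes the co-receptor Cripto, was the most abundant member under every label and was read in nearly every cell. In D0 it ranged from 0 to 917 CPM with a median of 331 and a mean of 336 ± 180. In D1 it ranged from 4.25 to 2037 CPM with a median of 574 and a mean of 732 ± 499, and in D2 from 0 to 2453 CPM with a median of 475 and a mean of 599 ± 534. Distributions overlapped, but 15 cells in D1 and 15 in D2 were at 1000 CPM or more and none in D0. The log2 ratio was 1.12 for D1 over D0, past 2-fold under all 12 alternatives tried, and 0.83 for D2 over D0. The latter ran from 0.27 to 1.30 over 11 other settings and was past 2-fold under 3 of 12 alternatives. For D2 over D1 the ratio was -0.29. At equal depth, 96.7% of D0 cells, 98% of D1 cells and 93.5% of D2 cells had a read. In D0 and D2 its level was also the most even of the 8, with 19.9% and 32.2% of the summed CPM in the highest 10% of cells. In D1 Foxh1 was more even, with 21.3% against 24.4% for Tdgf1. Per kilobase its mean level was 174 CPM in D0, 379 in D1 and 310 in D2.

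Acvr2b, which encodes a type II receptor, was the weakest member per kilobase in D0 and D2. It ranged from 0 to 77.3 CPM in D0 (median 2.42, mean 10.4 ± 16.5). The D1 range was 0 to 42.7 CPM (median 2.18, mean 6.58 ± 9.28), and the D2 range 0 to 107 CPM (median 0, mean 2.97 ± 15.9). Reads were found in 45.6% of D0 cells (35% to 56.4%), 46% of D1 cells (31.8% to 60.7%) and 5.38% of D2 cells (1.77% to 12.1%) at equal depth. Few D2 cells thus carried its reads, 6 of 93 without thinning. The log2 ratio was -1.53 for D2 over D0, and -0.68 when reads were summed over cells, which weights cells by depth. For D2 over D1 it was -0.93, from -1.52 to -0.35 over 11 other settings and past 2-fold under 4 of 12 alternatives. For D1 over D0 it was -0.60, with the sign turned when reads were summed over cells (0.02) and with TMM (0.20) and median-of-ratios factors (0.11).

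The transducers Smad2 and Smad3 differed from each other across the labels. Smad2 lies at chr18:76241580-76310963 on the plus strand. Smad2 ranged from 0 to 445 CPM in D0 (median 48.7, mean 77.9 ± 90.8). The D1 range was 0 to 271 CPM (median 22.4, mean 35.3 ± 54), and the D2 range 0 to 3125 CPM (median 0, mean 64.5 ± 339). Its log2 ratio was -1.12 for D1 over D0, past 2-fold under 6 of 12 alternatives and short of it with reads summed over cells (-0.68) and TMM factors (-0.48). The ratio for D2 over D0 was -0.27, and it ran from -1.66 in plate columns 1 to 6 to 0.38 in columns 7 to 12. The D2 mean hung on 1 cell, since without the highest cell of each label this ratio was -1.22. Smad3 ranged from 0 to 323 CPM in D0 (median 6.85, mean 32.4 ± 51.1). The D1 range was 0 to 32.4 CPM (median 0, mean 2.25 ± 7.33), and the D2 range 0 to 1372 CPM (median 0, mean 27.4 ± 152). The ratio of Smad3 was -3.36 for D1 over D0 (10.3-fold lower), the largest difference in that direction among the members, and it stayed past 2-fold under all 12 alternatives. Its size depended on the setting, from -4.89 to -1.79 over 11 others, the latter with a pseudocount of 10. For D2 over D0 the ratio of Smad3 was -0.23, with -1.13 without the highest cell of each label and the sign turned with TMM (0.11) and median-of-ratios factors (0.06). Smad3 was left out of the counts for D2 over D1, because neither label reached 20% of cells with a read, and its ratio was 3.13. Without the highest cell of each label its mean was 12.8 CPM in D2 and 1.63 CPM in D1. Its share at equal depth was 52.2% in D0 (41.4% to 62.9%), 10% in D1 (3.33% to 21.8%) and 6.45% in D2 (2.40% to 13.5%), and that of Smad2 76.7%, 72% and 19.4%. Both genes were therefore seldom read in D2, but only Smad3 was seldom read in D1.

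Foxh1, the DNA-binding partner of the SMADs, had a higher mean in D1 and D2 than in D0. It ranged from 0 to 310 CPM in D0 (median 44, mean 48.3 ± 43.2). The D1 range was 0 to 280 CPM (median 93.4, mean 92.5 ± 56.2), and the D2 range 0 to 1302 CPM (median 3.66, mean 123 ± 253). The median was highest in D1 and the mean in D2, where 25 of 93 cells were at 100 CPM or more and 52 had a read at all without thinning. The log2 ratio was 0.92 for D1 over D0, 1.33 for D2 over D0 and 0.40 for D2 over D1. The last turned sign with reads summed over cells (-0.08), TMM factors (-0.01) and mean log-normalized values (-0.15). The second was 0.96 in plate columns 1 to 6, short of 2-fold, and past it under the other 11 alternatives. At equal depth 90% of D0 cells, 98% of D1 cells and 48.4% of D2 cells had a read.

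Ordered by mean level per kilobase, Tdgf1 came first under every label. In D0 it was followed by Lefty2 (35.6 CPM per kilobase), Foxh1 (35.4), Nodal (24.1), Smad2 (9.63), Smad3 (6.36), Lefty1 (4.44) and Acvr2b (3.29). In D2 it was followed by Lefty1 (113), Foxh1 (89.9), Lefty2 (73), Nodal (29.5), Smad2 (7.97), Smad3 (5.38) and Acvr2b (0.937). In D1 the order was Tdgf1, Foxh1 (67.8), Nodal (23.3), Lefty1 (11.1), Lefty2 (9.07), Smad2 (4.36), Acvr2b (2.07) and Smad3 (0.441). The first step exceeded the SD of Tdgf1 between cells in D0 and D1 but not in D2 (276 CPM per kilobase). Of the steps between the other neighbours, that from Foxh1 to Nodal in D1 exceeded the SD of the higher gene, and the rest did not. Lefty1 moved from the seventh place to the second and Nodal kept a middle place.

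**Figure D2:**
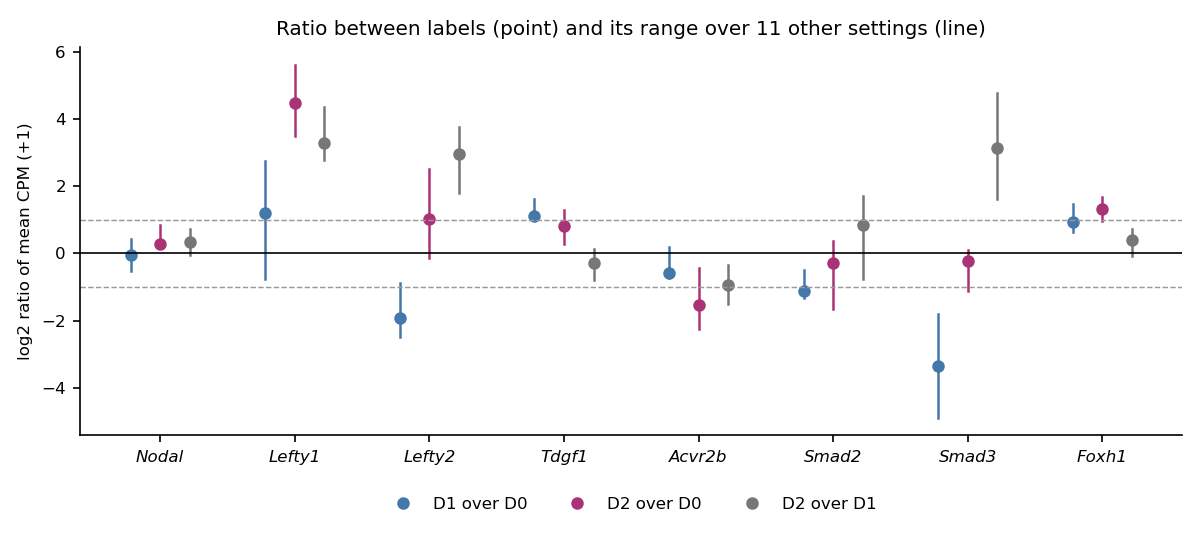
Log2 ratio of the mean CPM of each gene between labels, with 1 CPM added to each mean (points), and its range over 11 other settings (lines); dashed lines mark 2-fold. Lefty1 lies at 4.49 for D2 over D0 with its whole range above 2-fold, while the range of Lefty1 for D1 over D0 crosses 0.

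Set against all genes, a 2-fold difference in the mean was common. Genes were compared when 20% of cells or more had a read under 1 of the labels, without thinning. For D1 over D0, 14.5% of 14337 genes were higher by 2-fold or more and 23.9% were lower. All 8 members met that limit, Lefty1 only through D1 and Smad3 only through D0, and 2 were higher (Lefty1 and Tdgf1) and 3 lower (Lefty2, Smad2 and Smad3). For D2 over D0, 11.2% of 11896 genes were higher and 28.5% lower, and 3 members were higher (Lefty1, which met the limit only through D2, Lefty2 and Foxh1) and 1 lower (Acvr2b, which met it only through D0, as Smad3 did). For D2 over D1, 15.5% of 13790 genes were higher and 20.5% lower, and of 7 members that met the limit 2 were higher (Lefty1 and Lefty2) and 0 lower. The median log2 ratio over the members that met the limit was -0.32 for D1 over D0, 0.56 for D2 over D0 and 0.40 for D2 over D1, beside -0.12, -0.24 and -0.09 over all genes that met it. Scaling mattered here, because with TMM factors on summed reads the percentages of all genes higher and lower became 18.4% and 18.5% for D1 over D0 and 19.6% and 25.3% for D2 over D0, with medians of 0.07 and -0.00. With median-of-ratios factors they became 16.4% and 20.4% for D1 over D0 and 18.5% and 26.3% for D2 over D0. Under both scalings, 3 members were higher and 1 lower for D1 over D0, with Foxh1 past 2-fold and Lefty2 and Smad2 no longer so. For D2 over D0, 4 members were higher with TMM and 3 with median-of-ratios factors, in each case with Tdgf1 past 2-fold, and 0 lower, since Acvr2b was not. The member median for D1 over D0 changed sign with them, to 0.32 and 0.22, and was 0.12 with reads summed over cells, above the medians of all genes (0.07, 0.01 and -0.05). In D2 over D0 the member median was above that of all genes under each of these scalings (0.93, 0.88 and 0.66). The member median for D2 over D1, in contrast, became -0.01, 0.05 and -0.08, near those of all genes (-0.08, -0.05 and -0.12).

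The share of cells with a read has a background of its own, since D2 cells had fewer genes with a read. For D2 over D0, 62.9% of all genes that met the limit had an equal-depth share lower by 20 percentage points or more, and 1.13% a share higher by as much. Of the members, 5 were lower (Nodal, Acvr2b, Smad2, Smad3 and Foxh1) and 0 higher, so the lower shares of these genes in D2 are near what the table shows generally. For D2 over D1 the percentages were 56.8% and 1.19%, and 4 members were lower (Nodal, Acvr2b, Smad2 and Foxh1). For D1 over D0 they were 10.4% and 11%, with 2 members lower (Lefty2 and Smad3). Lefty1 was the only member whose share was higher in D2 than in D0, by 18.9 points and so short of 20, against a median of -28.9 points over all genes.

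The lower shares in D2 went with transcript length. Among genes with a transcript under 2 kb, 36.7% had a share lower by 20 points or more in D2 than in D0, among those of 2 to 4 kb 73.2%, and among those of 4 kb or more 85.4%. Of the short members, Lefty1 (18.9 points) and Tdgf1 (-3.12 points) were not lower by 20 points and Foxh1 (-41.6 points) was. Of the middle group, Nodal (-37.9 points) and Acvr2b (-40.2 points) were and Lefty2 (-15.5 points) was not, and of the long members both Smad2 (-57.3 points) and Smad3 (-45.8 points) were. Foxh1 was thus lower although most short genes were not, and the part of length in each member's value was not tested.

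**Figure D3:**
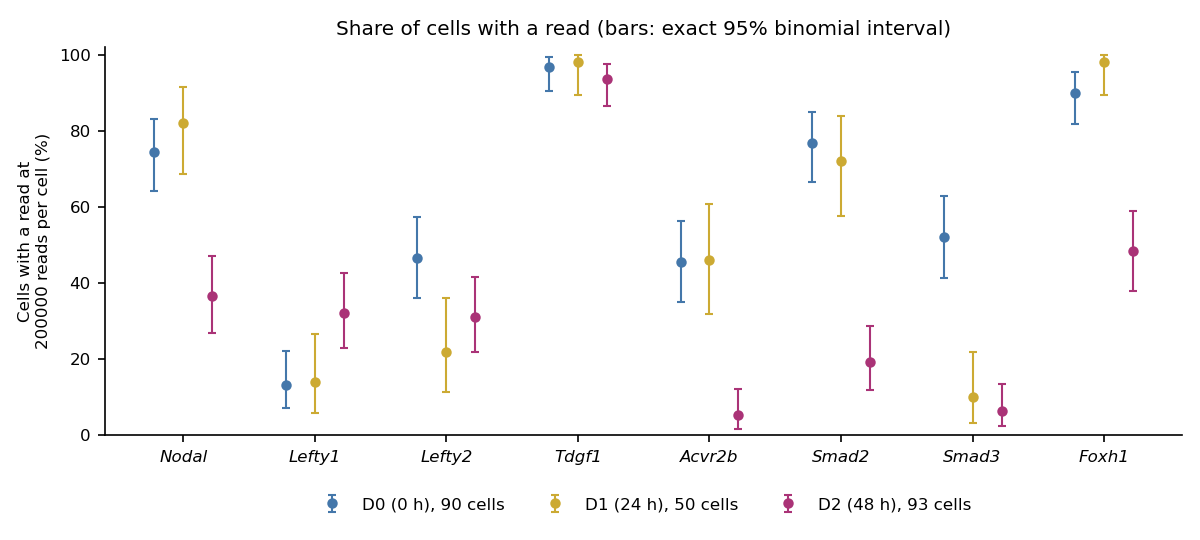
Share of passing cells with at least 1 read of each gene after every cell was thinned to 200000 reads, with exact 95% binomial intervals (counting error only), for D0, D1 and D2. In D2 the share is 5.38% for Acvr2b and 93.5% for Tdgf1, and Lefty1 is the gene whose point is highest in D2.

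Whether ligand, co-receptor and inhibitor were read in the same cells was asked at equal depth. Reads of Nodal, of Tdgf1 and of Lefty1 or Lefty2 were found together in 35 of 90 D0 cells (38.9%, 28.8% to 49.7%), 12 of 50 D1 cells (24%, 13.1% to 38.2%) and 17 of 93 D2 cells (18.3%, 11% to 27.6%). Nodal and Tdgf1 without a Lefty read were found in 30 D0 cells, 28 D1 cells and 15 D2 cells. Tdgf1 and a Lefty read without Nodal were found in 10 D0 cells, 0 D1 cells and 18 D2 cells, where 0 of 50 allows a share of up to 6% by a limit of 3 counts and 7.11% by the exact interval. Tdgf1 alone of the set was found in 12 D0 cells, 9 D1 cells and 37 D2 cells. Because Tdgf1 was read almost everywhere, the combinations turned on Nodal and Lefty. In D2 a Lefty read was found in 18 cells with a Nodal read and in 20 without, whereas in D1 all 12 cells with a Lefty read also had a Nodal read. D2 cells had fewer genes with a read than D0 cells, and the part of that in the lower D2 share was not tested.

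**Figure D4:**
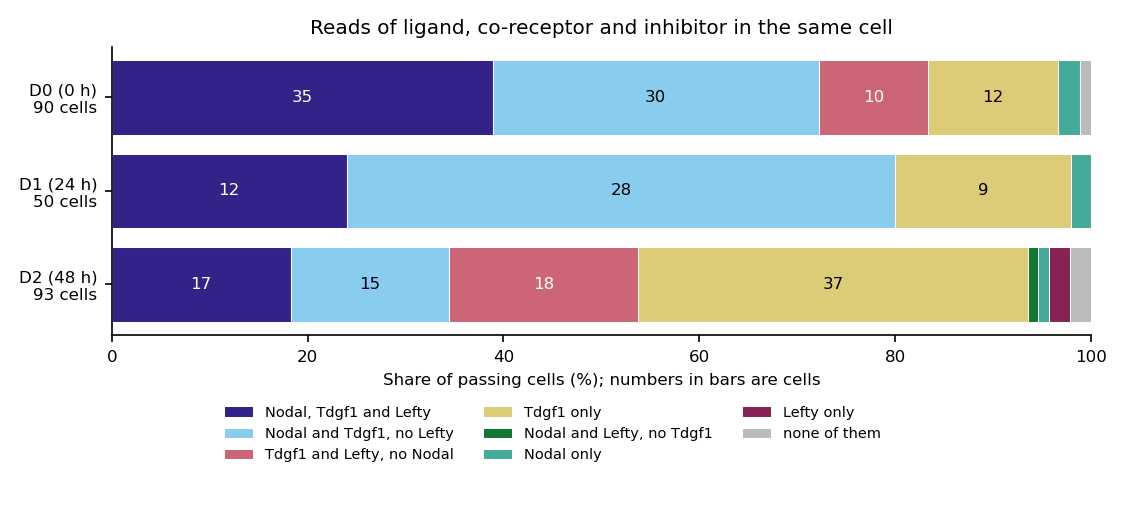
Share of passing cells under each label with reads of Nodal, Tdgf1 and Lefty1 or Lefty2 together or apart, each cell thinned to 200000 reads; numbers in the bars are cells. All of them are read together in 35 D0, 12 D1 and 17 D2 cells, and Tdgf1 alone is the largest class in D2 with 37 cells.

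A Lefty read was found in 52.2% of the 67 D0 cells with a Nodal read and in 43.5% of the 23 without, a difference inside the counting intervals (39.7% to 64.6% and 23.2% to 65.5%). In D1 it was found in 29.3% of the 41 cells with a Nodal read (16.1% to 45.5%) and in 0 of the 9 without, where the exact interval reaches 33.6%. In D2 it was found in 52.9% of the 34 cells with a Nodal read (35.1% to 70.2%) and in 33.9% of the 59 without (22.1% to 47.4%). Lefty reads were more frequent beside Nodal reads in each label, but in each the intervals overlapped, and in D0 cells above the median number of genes the direction turned (52.9% with a Nodal read, 54.5% without). The D2 cells with and without a Nodal read had a median of 4084.5 and 3876 genes with a read. In level, Nodal had a mean of 83.8 ± 59.6 CPM in the 12 D1 cells with a Lefty read and 37.6 ± 40.7 CPM in the other 38. This difference was below the first SD and above the second. In D0 the mean of Nodal was 58 ± 55.4 against 43.2 ± 52.7 CPM and in D2 75.1 ± 143 against 52.6 ± 127 CPM, differences smaller than the spread between cells. Across cells, Spearman's rho between Nodal and Lefty2 came to 0.13, 0.44 and 0.22 in the order D0, D1, D2, and between Nodal and Lefty1 0.16, 0.16 and 0.04 (90, 50 and 93 cells, those of a label sharing 1 plate and differing in depth). Nodal and Tdgf1 had 0.11, 0.03 and -0.07.

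The inhibitors were often read in the same cells. In D2, 21 of the 30 cells with a Lefty1 read also had a Lefty2 read (70%, 50.6% to 85.3%), against 8 of the 63 without (12.7%, 5.65% to 23.5%). In D1 it was 6 of 7 cells (85.7%, 42.1% to 99.6%) against 5 of 43 (11.6%, 3.89% to 25.1%), and in D0 9 of 12 (75%, 42.8% to 94.5%) against 33 of 78 (42.3%, 31.2% to 54%). The intervals did not overlap in D1 and D2, and in D0 they did. D2 cells with and without a Lefty1 read had nearly the same number of genes with a read, with medians of 3967.5 and 3929. In D2 the share was 80% against 16.1% in cells above the median number of genes and 60% against 9.38% in the others. Spearman's rho between Lefty1 and Lefty2 was 0.38, 0.57 and 0.53 in D0, D1 and D2, and 0.28, 0.61 and 0.64 after thinning. The windows that the inhibitors have in common bear on this pair, and their part was not tested. Of the D2 cells, 14 had Lefty1 reads and no Lefty2 read and 13 the reverse, without thinning. Among the remaining pairs of members it was between -0.24 and 0.44 in every label, and between -0.14 and 0.42 after thinning. After thinning, the value of the inhibitors was above those of the other pairs in D1 and D2 but not in D0, where Tdgf1 and Foxh1 had 0.33 and Lefty2 and Tdgf1 0.30.

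**Figure D5:**
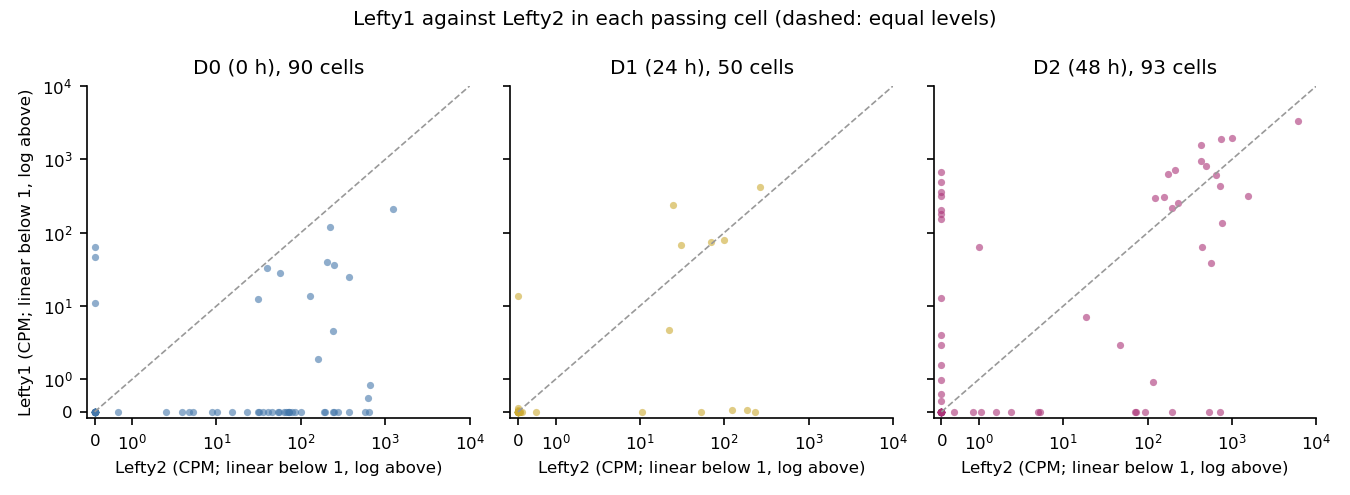
Lefty1 against Lefty2 in every passing cell of D0, D1 and D2 (CPM, both axes linear below 1 and logarithmic above); the dashed line marks equal levels. Of the D0 cells off the line 45 lie below it and 3 above, whereas D2 cells lie on both sides (23 below, 26 above). Cells with neither gene read lie on it at 0.

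Counting all members at equal depth, the median cell had reads of 5 of the 8 in D0, 4 in D1 and 3 in D2, beside 7795.5, 8047.5 and 3959 genes of the whole table. All 8 were read together in 3 D0 cells and in 0 cells of D1 and D2. Reads of 2 or fewer were found in 4 D0 cells, 2 D1 cells and 42 D2 cells.

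Genes whose level followed that of a member from cell to cell were sought for the members read in at least 50% of cells of every label, which were Tdgf1 and Foxh1, among 3643 other genes by the lowest of the rho values in the 3 labels. Tdgf1 was followed most closely by its pseudogene Tdgf1-ps1 (lowest rho 0.72) and then by Tmem50a (0.31), AC124592.1 (0.26), Pafah1b2 (0.22) and Fn1, the fibronectin gene (0.21). The pseudogene shares sequence with Tdgf1, and the part of that in the first value was not tested. For Foxh1 the closest were Eef2, a translation elongation factor gene (0.27), Chd4, of the NuRD remodelling complex (0.24), Slc25a11 (0.22), Ywhaz (0.22) and Smyd5 (0.22). After thinning, 4 of the 5 remained for Tdgf1 and 2 of the 5 for Foxh1.

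Of 36 further pathway genes listed by role, 21 met the limit for D2 over D0, with 2 higher by 2-fold and 13 lower, and a median log2 ratio of -1.89, beside 11.2% higher, 28.5% lower and a median of -0.24 over all genes. Of these 21 genes 11 had a transcript of 4 kb or more, and 8 of the 11 were lower, where 48.1% of all genes of that length were lower. The part of length was not tested. All 13 lower genes met the limit only through D0, where they were high, so their count is a description and no support for a lower pathway. For D1 over D0, 21 met it, with 1 higher and 9 lower (median -0.67, beside 14.5% higher, 23.9% lower and a median of -0.12 over all genes), and for D2 over D1, 18, with 1 higher and 7 lower (median -0.73, beside 15.5%, 20.5% and -0.09). Of the lower genes, Acvr1b, Gsc and T met the limit only through D0 in the former comparison, and all but Drap1 only through D1 in the latter. Among the receptors, Acvr1b, the type I receptor of Nodal, had means of 20.6, 1.29 and 2.95 CPM in the order D0, D1, D2. Its log2 ratios were -3.24 for D1 over D0 and -2.45 for D2 over D0. The related type I receptor gene Tgfbr1 had 37.3, 8.91 and 6.93 CPM, and the type II receptor gene Acvr2a 31.6, 19.6 and 5.98 CPM. These 3 were the receptor genes of the list that met the limit for D2 over D0, like Acvr2b only through D0. Among transducers, Smad4, the common partner of SMAD2 and SMAD3, had 40.2, 18.6 and 5.26 CPM, and Trim33 86, 76.1 and 13.2 CPM. Zfyve9, which presents SMAD2 to the receptor, had 27.1, 12.5 and 5.50 CPM. The last 3 were past 2-fold lower in D2 over D0, with log2 ratios of -2.72, -2.61 and -2.11. The proprotein convertase genes Furin and Pcsk6, whose enzymes cleave the Nodal precursor, were lower by 2-fold in both D1 and D2 than in D0, with Pcsk6 at 16.3, 6.14 and 3.36 CPM.

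Of the other inhibitors, Skil, which encodes the SMAD repressor SnoN, had a higher mean in D1 and D2 than in D0, with 42.2, 135 and 154 CPM and log2 ratios of 1.66 for D1 over D0 and 1.84 for D2 over D0. The D2 mean rested on few cells, since the medians were 14.4, 99.7 and 15.5 CPM, the equal-depth shares 66.7%, 90% and 58.1%, and the highest 10% of D2 cells held 67.2% of the summed CPM. Fst, a secreted activin antagonist, and Smad7, an inhibitory SMAD gene, were lower in D2 over D0 with ratios of -1.87 and -1.99, and Dact2 with -1.89. Cer1, a secreted Nodal antagonist, had no read in any passing cell, which allows a share of up to 3.33% in D0, 6% in D1 and 3.23% in D2 by a limit of 3 counts (4.02%, 7.11% and 3.89% by the exact interval). For D2 over D1, Drap1 (-1.08) was also lower. The second ligand of the embryonic stem cell, Gdf3, was under 2-fold in every comparison, at 157, 246 and 217 CPM. Fstl3, a follistatin-like gene, was read in 1 D0, 6 D1 and 8 D2 cells, too few to be compared, at 0.0392, 0.252 and 7.03 CPM. Among the listed inhibitors that were compared, Skil was the only one past 2-fold higher in D2 over D0.

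Among targets of the pathway known from mesoderm and endoderm formation, Gsc was read in 50 of 90 D0 cells at a mean of 9.37 CPM, and in 1 D1 cell and 6 D2 cells. T (brachyury) was read in 18 D0 cells, 1 D1 cell and 0 of 93 D2 cells, which allows a share of up to 3.23% by a limit of 3 counts (3.89% by the exact interval). Eomes was read in 13, 8 and 1 cells and Mixl1 in 12, 1 and 1. In D0, 57 of 90 cells had a read of at least 1 of these 4 targets at equal depth, and a Lefty read was found in 50.9% of them and in 48.5% of the others. Otx2 was read at equal depth in 41.1% of D0, 20% of D1 and 25.8% of D2 cells, so that it too was read in fewer D2 cells. Its mean was nevertheless higher in D2, with 12.7, 8.12 and 38.4 CPM and a log2 ratio of 1.53 for D2 over D0, and the highest 10% of D2 cells held 77.2% of its summed CPM.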

How the data were processed

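Single-cell RNA libraries of 288 wells (96 each labelled D0, D1 and D2) were used, of which 233 cells passed. The authors aligned the reads with HISAT2, GRCm38 being the build in the submitters' processing notes, and deposited raw counts of reads per gene. The counting tool is not given in the sources used here. The sample descriptions name a filtered, normalized table, but the values are whole numbers and include wells that fail the filter. The study's text prints the mitochondrial limit with a percent sign, and it was read here as a fraction of 0.15. The study kept fewer cells than that reading leaves. Groups came from the sample titles.

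From the counts, CPM (reads per 1000000) was computed with the total of each cell, and means weight cells equally. Levels per kilobase used the principal GENCODE vM21 transcript. Ratios are log2 of mean CPM plus 1, called at 2-fold where 20% of cells or more had a read under 1 of the labels compared. Intervals of shares are Clopper-Pearson at 95%. They hold counting error over cells alone, since each label is 1 culture. Reads carry no molecular identifiers. Cells were thinned without replacement to 200000 reads with a fixed seed. With 1 culture per label no test was possible and no p is given. Copies were compared by local alignment of coding sequence (Biopython 1.88) and by shared windows of 75 bases.

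The members and lists were chosen with earlier results of these data known. Beside the 8 members, the text names genes of the 36-gene pathway list by 2-fold and the 5 genes most like a member. Gdf3, Cer1, Fstl3, Eomes and Mixl1, of the same list, and cells at or above 100 or 1000 CPM were picked with their values known, like the Tdgf1-ps1 shares by Hprt. Other marker lists gave these summed mean levels in D0, D1 and D2. Trophectoderm (which includes Eomes, Tfap2c and Krt8) had 97.5, 36.3 and 84.6 CPM, mesoderm 11.9, 1.51 and 0.123, ectoderm 10.1, 19.5 and 1.38, fibroblast 0.406, 3.60 and 0.404, and primitive endoderm 7.62, 2.78 and 2.32.

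Alternatives were no filter and a stricter filter on cells (more than 300000 reads and more than 3000 genes), pseudocounts of 0.1 and 10, log-normalized values, summed reads, TMM (edgeR 4.0.16) and median-of-ratios factors, thinning, no filter on genes, the highest cell left out, plate sides, and detection at 5 reads or 10 CPM. In simulated counts with 200 genes changed, 185 changed 2.5-fold and 200 changed 4-fold were called for D1 over D0, among 21777 and 21753 genes. Apart from the changed genes, all labels were drawn there from the D0 means, with the same spread between cells for every gene. Genes of very low level were not changed. How well genes as uneven between cells as several members in D2 are called was therefore not tested. Python 3.11.15, numpy 2.4.6, pandas 2.3.3, scipy 1.17.1 and R 4.3.3 were used.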

Additional observations from a re-analysis of the deposited data

How the results depend on the processing

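No paired analysis was possible because each label is 1 culture and wells share only plate positions. The number of members past 2-fold for D1 over D0, 5 as reported, became 3 without a filter on cells, 3 with a pseudocount of 10 and 3 in plate columns 1 to 6, in each case losing Lefty1 and Smad2. For D2 over D0, 4 became 2 with a pseudocount of 10, losing Lefty2 and Acvr2b, beside 6.83% of all genes higher and 16.5% lower. For D2 over D1, 2 became 4 in plate columns 7 to 12, with Smad2 and Smad3 added. The cause was not tested. The other counts and the joint shares, 73 of 78 alternative values, kept within 1.5 times or within the counting interval. Names and directions could change within these counts. For D2 over D0, 3 higher and 1 lower became 2 and 3 without the highest cell, beside 8.82% and 37.1% of all genes. Lefty2 was lost there, and Smad2 and Smad3 were gained. In plate columns 1 to 6 they became 1 and 2, beside 11.6% and 33.3%, with Lefty2 and Foxh1 lost and Smad2 gained. A change of sign among members called was found in plate columns 1 to 6 for Lefty1 in D1 over D0 (-0.75) and Lefty2 in D2 over D0 (-0.14), against 2.74 and 2.52 in plate columns 7 to 12, where Lefty1 was read in too few cells to be compared. Lefty1 in D2 over D0 and over D1, Lefty2 in D2 over D1, and Tdgf1 and Smad3 in D1 over D0 were past 2-fold under all 12 alternatives. Smad2 in D1 over D0 was past it under 6, and Lefty2 and Acvr2b in D2 over D0 under 7 each. With mean log-normalized values the difference of Nodal for D2 over D0 was -0.06, of opposite sign to its ratio. Means over D2 cells rest on few cells, the highest 10% holding 98.0% of the summed CPM of Smad2.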

Other observations

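Beyond the comparisons, Tdgf1-ps2, a second annotated pseudogene of Tdgf1, was read in 0 D0 cells at equal depth, 1 D1 cell and 1 D2 cell, the last at 471 CPM. The highest cells were compared for some pairs of members, and in each such pair most of them were not shared. The number to be shared without a link between the genes was not worked out. Among the highest 10% of D2 cells (10 cells), Lefty1 and Lefty2 shared 4, Nodal and Lefty1 shared 1, and Nodal and Lefty2 shared 0. In D0 (9 cells) the numbers were 2, 3 and 3, and in D1 (5 cells) 2, 0 and 0. Smad2 and Smad3, which act in the same complex, showed no common order across cells, with rho of -0.03 in D0, -0.12 in D1 and 0.16 in D2. Both were read in 45 D0 cells, 8 D1 cells and 5 D2 cells without thinning.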
